A study of Homo sapiens with 8 samples.

Results

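The 10 genes described here encode secreted cytokines of inflammation: IL6, LIF and IL11 of the IL6 family, the colony-stimulating factors CSF3, CSF2 and CSF1, the IL1 family members IL1A, IL1B and IL18, and TNF. They were chosen by gene name, and each had 1 entry among the 59641 genes of the deposited table. The names were selected on, and with knowledge of, the FPKM differences between hFGF19 and control samples, so those differences are a description here and their p-values are not independent evidence. RNA was sequenced from HCT116, an established human colorectal cancer line, as poly(A)-selected paired-end libraries. The control group had 4 samples without stimulation, and the other 4 samples had received hFGF19, the human form of fibroblast growth factor 19, for 72 hours at 100 ng/ml. The culture time of the controls is not given in the labels. The RNA protocol in the labels once mentions adipose RNA, although every other label names the cell line. No label says whether the samples of a group were separate cultures, so p-values measure only the spread between them, which may be technical. The title of the series links FGF19 to FGFR4, ERK and NF-kB, which is the question that inflammatory target genes bear on.

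NF-kB and AP-1 are transcription factors that switch on many of these genes after a stimulus, and the resulting mRNAs are often short-lived, because AU-rich elements in their 3′ untranslated regions recruit decay factors. IL6, LIF and IL11 signal through receptors that share the chain IL6ST and activate STAT3. CSF3, CSF2 and CSF1 drive the growth of granulocytes, of granulocytes and macrophages, and of macrophages. IL1A and IL1B act on the same receptor, whereas IL18 has its own and, like IL1B, is made as a precursor that caspase-1 cleaves. Epithelial tumour cells can make several of these cytokines themselves.

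Library totals lay between 17121190 and 20752753 reads. Of 10 colorectal epithelial markers 5 were tested and 0 passed. The keratins KRT8, KRT18 and KRT19 were abundant, at means of 1488, 579.6 and 692 FPKM in the controls. With hFGF19 they averaged 1413, 593 and 705 FPKM. All KRT8 values with hFGF19 lay below all controls (adjusted p = 0.9998, limma), as in 1.65% of all genes tested. EPCAM and CDH1 averaged 27.9 and 42.0 FPKM in the controls and 26.6 and 39.0 FPKM with hFGF19. CDH17, LGALS4 and VIL1 averaged 0.45, 0.311 and 0.183 FPKM in the controls. The colon markers KRT20 and CDX2 were near 0 (3 and 2 reads over the 4 controls). Among 12 fibroblast and endothelial markers, 9 had a mean under 1 FPKM. The other 3, COL1A1, PECAM1 and CDH5, averaged 23.0, 4.27 and 3.72 FPKM in the controls and 22.5, 5.09 and 3.87 FPKM with hFGF19, and 0 passed the test. Of 16 immune cell markers, 12 had a mean under 1 FPKM, CD3E and AIF1 were at 0 in all 8 samples, and PTPRC, the pan-leukocyte marker, averaged 0.210 ± 0.0838 FPKM in the controls and 0.121 ± 0.121 FPKM in the hFGF19 samples. The summed immune markers were 13.1 to 15.7 FPKM in the controls and 13.8 to 16.8 FPKM with hFGF19, mostly from CSF1R, HLA-DRA and ITGAX. The monocyte marker CD14 averaged 0.935 ± 0.178 FPKM in the controls and 1.45 ± 0.426 FPKM in the hFGF19 samples, with overlapping groups (log2 change 0.33, adjusted p = 0.9998, limma). Of the 4 immune markers tested (CD14, CSF1R, HLA-DRA and ITGAX) 0 passed, as against 0.106% of all genes tested. In HLA-DRA all hFGF19 samples lay above all controls, as in 1.48% of all genes tested. Of these 4 markers 3 had log2 changes above 0, and the median was 0.20. Their part in the cytokine values was not tested. In RNA of a whole culture, fewer cells making a transcript and less RNA per cell cannot be told apart.

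In the controls the cytokine transcripts spanned from CSF1 at 149.5 ± 19.2 FPKM to TNF at 0.0468 ± 0.0400 FPKM (mean ± SD, n = 4, also below). The order of control levels was CSF1, IL11 (105 FPKM), LIF (85.7), IL18 (58.4), IL6 (17.6), CSF3 (9.51), IL1A (6.97), IL1B (3.37), CSF2 (3.06) and TNF. Neighbours in that order had ranges over the 4 samples that did not overlap, except IL1B (2.93 to 3.77 FPKM) and CSF2 (2.37 to 4.35 FPKM). With hFGF19 the order was the same but for CSF2, at 5.94 to 6.21 FPKM, and IL1B, at 4.10 to 6.10 FPKM, which changed places and again overlapped. CSF1, IL11, LIF and IL18 were thus the abundant cytokines of this line, at percentiles 95, 91.8, 89.3 and 83.6 of the genes tested. IL6, CSF3 and CSF2 stood at percentiles 56.2, 42.0 and 21.

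Over all genes, limma on log2(FPKM + 1) called 0.106% of 14100 genes at an adjusted p below 0.05, with 0.0993% higher and 0.00709% lower with hFGF19. At an unadjusted p below 0.05 the share was 4.23%. Of the 10 cytokines 9 had a mean of at least 1 FPKM and were tested, TNF being the exception. Of these, 2 rose, IL6 and CSF3, 0 fell and 7 did not pass. The voom fit on recovered reads called the same 2, and 0.0993% of all genes. In the fit blocked on replicate number, 3 of 9 were called higher, the third being CSF2, against 0.128% of all genes higher and 0.149% in either direction. In 5 of the 9 (IL6, CSF3, CSF2, IL1A and IL1B) all hFGF19 samples lay above all controls, which held for 1.48% of all genes tested (1.65% had all hFGF19 samples lower), and in 4 the groups overlapped. The median log2 change was 0.30 for the 9 cytokines and -0.01 for all genes tested. Because the cytokines were chosen with this contrast known, nothing is read from these shares.

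**Figure D1:**
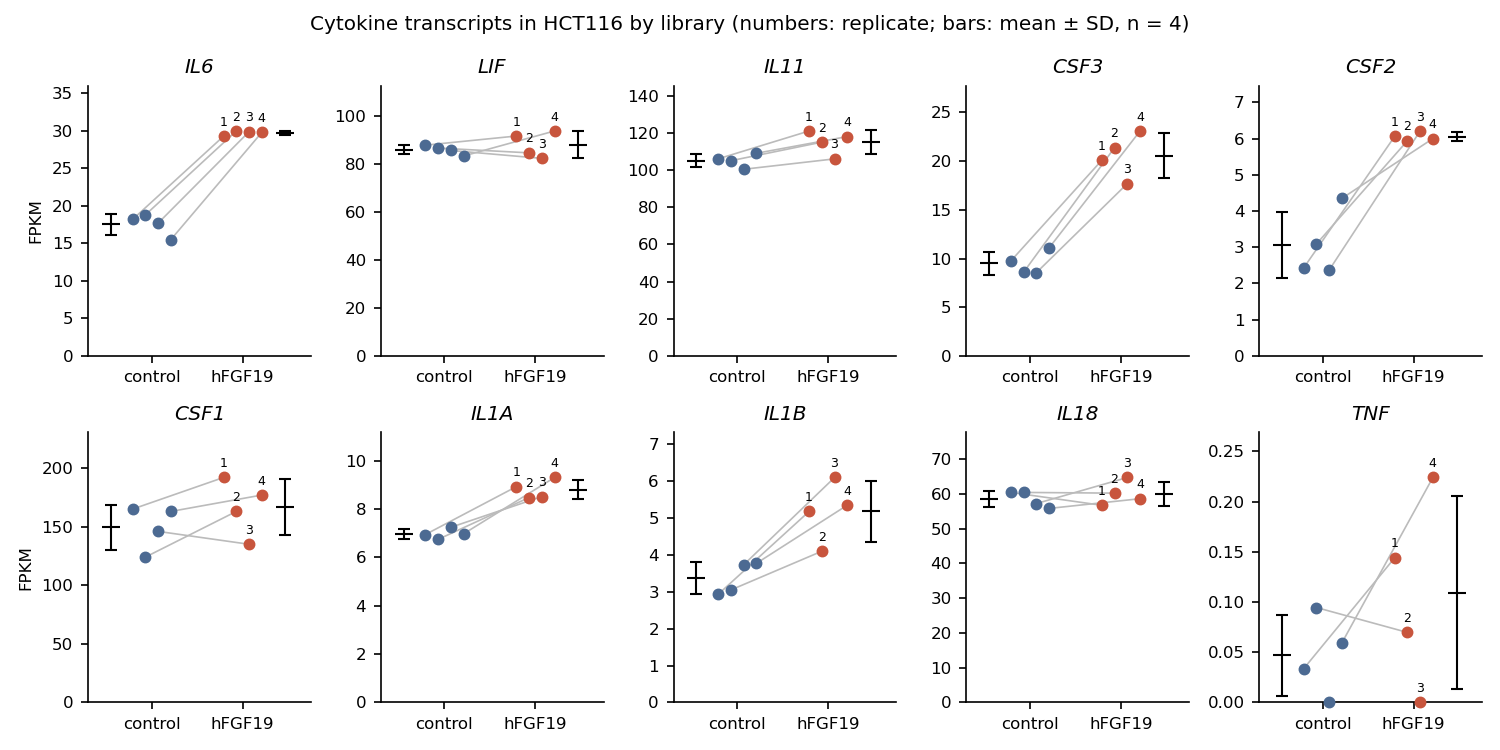
FPKM of the 10 cytokines in each library, with a grey line joining samples of equal replicate number and black bars for the mean ± SD (n = 4). IL6, CSF3, CSF2, IL1A and IL1B have separate groups, and the groups of LIF, IL11, CSF1, IL18 and TNF overlap.

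IL6 (ENSG00000136244), the founding cytokine of its family and an inducer of the acute-phase response, stood at 18.2, 18.8, 17.7 and 15.5 FPKM in controls 1 to 4. With hFGF19 it was at 29.3, 30, 29.9 and 29.8 FPKM. The lowest hFGF19 sample was 10.5 FPKM above the highest control. The ratio of mean FPKM was 1.70, and the log2 change was 0.73 ± 0.0652 (SE; adjusted p = 0.00199, limma). These values rest on 268 to 306 reads per control and 441 to 523 reads per hFGF19 sample. The pooled read ratio was 1.70, with a 95% counting interval of 1.58 to 1.83. The 4 hFGF19 values had an SD of 0.991% of the mean, against 4.59% expected from the read number alone. Whether this gap exceeds the scatter of an SD from 4 values was not tested. In the controls the SD was 8.23% against 5.95%.

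The IL6 promoter is shown because it holds a kB-like motif with a run of T (GGG, any 2 bases, TTTCC), which occurs on either strand in 1.91% of the 35116 promoter windows of 300 bases in RefSeq (GRCh38.p14). Of the 6 cytokines with a window there (IL6, CSF2, TNF, IL11, IL1A and IL1B), IL6 was the 1 that held it. The looser kB-like form (GGG, any 5 bases, CC), which includes the former, occurs in 58.7% of all windows and was found in IL6, CSF2 and TNF. Below are the 250 bases before the annotated start, chr7:22726950-22727199 on the plus strand, with capitals for both kB-like forms. The match to the T-run form lies at bases -73 to -64 from the start.
IL6 promoter: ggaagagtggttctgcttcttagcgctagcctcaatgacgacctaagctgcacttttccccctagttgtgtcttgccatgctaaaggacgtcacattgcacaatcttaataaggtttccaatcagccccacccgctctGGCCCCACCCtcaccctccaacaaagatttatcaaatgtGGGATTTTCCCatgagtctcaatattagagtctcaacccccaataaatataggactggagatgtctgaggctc

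LIF, a pleiotropic cytokine named for leukaemia cells, and IL11, which acts on stromal and haematopoietic cells, are the other members of that family. LIF stood at 87.7, 86.5, 85.5 and 83.2 FPKM in the controls and at 91.5, 84.5, 82.2 and 93.6 FPKM with hFGF19. These groups overlapped, and the log2 change of 0.04 had a 95% confidence interval of -0.09 to 0.16 (adjusted p = 0.9998, limma). IL11 was at 106, 105, 100.4 and 109 FPKM in the controls and at 121, 115, 106 and 118 FPKM with hFGF19. Its groups overlapped, with a ratio of means of 1.09 and a log2 change of 0.13 (interval 0.01 to 0.25, adjusted p = 0.9998, limma). The summed FPKM of IL6, LIF and IL11 was 204 to 211 in the controls and 219 to 241 with hFGF19, and LIF and IL11 made up most of it in every sample.

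CSF3 (ENSG00000108342), which drives neutrophil production, had the largest log2 change of the 9 cytokines tested. It stood at 9.76, 8.60, 8.55 and 11.1 FPKM in the controls and at 20.1, 21.4, 17.7 and 23.1 FPKM with hFGF19. The groups were separate by 6.59 FPKM. The ratio of means was 2.16 and the log2 change was 1.04 ± 0.0999 (SE; adjusted p = 0.00226, limma). It rests on 175 to 252 reads per control and 355 to 484 per hFGF19 sample, and the pooled read ratio was 2.16, with a counting interval of 1.98 to 2.35. In both groups the SD (12.8% and 11.0% of the mean) was above that from counting (7.05% and 4.83%).

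CSF2 (ENSG00000164400), which acts on granulocytes, macrophages and dendritic cells, was at 2.43, 3.09, 2.37 and 4.35 FPKM in the controls. With hFGF19 it was at 6.06, 5.94, 6.21 and 6 FPKM. Control 4 stood above the other controls but below every hFGF19 sample. The ratio of means was 1.98 and the log2 change 0.82 ± 0.138 (SE), with an adjusted p of 0.0806, or 0.0359 with the block (limma). Without control 4, the highest control, the log2 change was 0.96 and the adjusted p 0.00487 (limma). That was the 1 call of CSF2 among 8 fits that each left out 1 library. The adjusted p was 0.0973 by voom on recovered reads and 0.387 by limma with no filter. Reads were few, 34 to 69 per control and 80 to 99 per hFGF19 sample, and the pooled read ratio was 1.95, with a counting interval of 1.63 to 2.35. The SD of the hFGF19 samples (1.89% of the mean) was again below that expected from counting alone (10.6%), a gap that was not tested.

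CSF2 is shown with its promoter, chr5:132073539-132073788 on the plus strand (GRCh38.p14), because it was the 1 cytokine of the 6 with a CK-1-like motif, an element named for its place in cytokine genes, which 0.231% of all windows hold on either strand. Capitals mark that match at -101 to -92 and a match of the looser kB-like form on the opposite strand at -85 to -76. The set of RefSeq windows used here held none for CSF3, CSF1, LIF and IL18, so motifs in their promoters were not examined. The AP-1 motif TGANTCA (7.71% of windows) was found in IL11 and IL1A, and the CRE motif TGACGTCA (1.85%) in 0 of the 6. The letters TATAAA of the TATA box (11.5%) lay at -29 to -24 in TNF. In IL1A they lay at -239 to -234 from its first annotated start. A match is a description of the letters and no evidence of binding.
CSF2 promoter: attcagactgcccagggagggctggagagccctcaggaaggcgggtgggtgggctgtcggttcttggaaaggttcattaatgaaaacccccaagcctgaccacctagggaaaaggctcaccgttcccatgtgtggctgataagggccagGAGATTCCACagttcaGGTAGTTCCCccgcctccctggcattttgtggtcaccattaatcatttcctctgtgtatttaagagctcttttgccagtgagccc

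**Figure D2:**
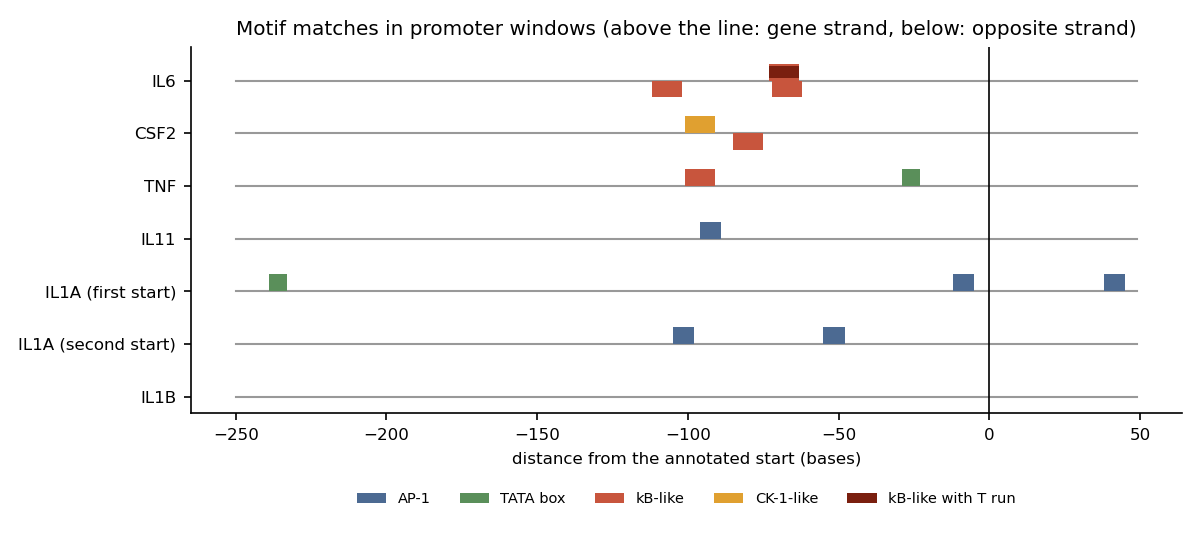
Positions of the motif matches in the 300-base promoter windows of 6 cytokines, in bases from the annotated start, with matches on the gene's strand above each line. IL6 carries kB-like matches from -112 to -63 and CSF2 its CK-1-like and kB-like matches from -101 to -76, IL11 and IL1A carry AP-1 matches, and IL1B carries none.

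CSF1, the macrophage growth factor, was the most abundant of the 10 in both groups and differed between replicate numbers. It was at 165, 124, 146 and 163 FPKM in the controls and 192, 163, 135 and 177 FPKM with hFGF19. The groups overlapped, and the log2 change of 0.16 had a 95% confidence interval of -0.10 to 0.41 (adjusted p = 0.9998, limma). Samples numbered 1 and 4 averaged 164 FPKM and those numbered 2 and 3 averaged 135 FPKM in the controls, and the averages were 185 and 149 FPKM with hFGF19. In both groups the values of 1 and 4 lay above those of 2 and 3, as they did for IL11.

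The IL1 family members IL1A and IL1B had separate groups, but neither passed the test. IL1A, which is active in its precursor form and is released by damaged cells, was at 6.94, 6.74, 7.24 and 6.97 FPKM in the controls and 8.92, 8.47, 8.51 and 9.30 FPKM with hFGF19. Its ratio of means was 1.26, and its log2 change was 0.30 ± 0.0652 (SE; adjusted p = 0.316, limma). IL1B, the form secreted after cleavage by caspase-1, was at 2.93, 3.05, 3.73 and 3.77 FPKM in the controls. It was at 5.18, 4.10, 6.10 and 5.35 FPKM with hFGF19, where sample 2 lay 0.332 FPKM above the highest control. The ratio of means was 1.54 and the log2 change 0.50 ± 0.118 (SE; adjusted p = 0.423, limma, on 46 to 67 and 62 to 96 reads per sample).

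IL18, an inducer of interferon gamma that epithelia express constitutively, showed overlapping groups. It stood at 60.4, 60.4, 57.2 and 55.8 FPKM in the controls and 56.7, 60.2, 64.7 and 58.6 FPKM with hFGF19. The log2 change of 0.04 had a 95% confidence interval of -0.09 to 0.16 (adjusted p = 0.9998, limma). The summed FPKM of the 3 family members was 66.5 to 70.3 in the controls and 70.8 to 79.3 with hFGF19, most of it IL18.

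TNF, the cytokine that signals through TNFRSF1A to NF-kB, was close to the limit of detection. Controls 1 to 4 held 1, 3, 0 and 2 reads, and the hFGF19 samples 5, 2, 0 and 7. That is 0.0336, 0.0945, 0 and 0.0593 FPKM against 0.144, 0.0697, 0 and 0.224 FPKM, with overlapping groups. The pooled read ratio was 2.36, with a counting interval of 0.851 to 7.48, so no difference could be detected with this few reads. In the fit with no filter on low values its log2 change was 0.08 (adjusted p = 0.922, limma), where 0.0271% of 36884 genes were called.

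**Figure D3:**
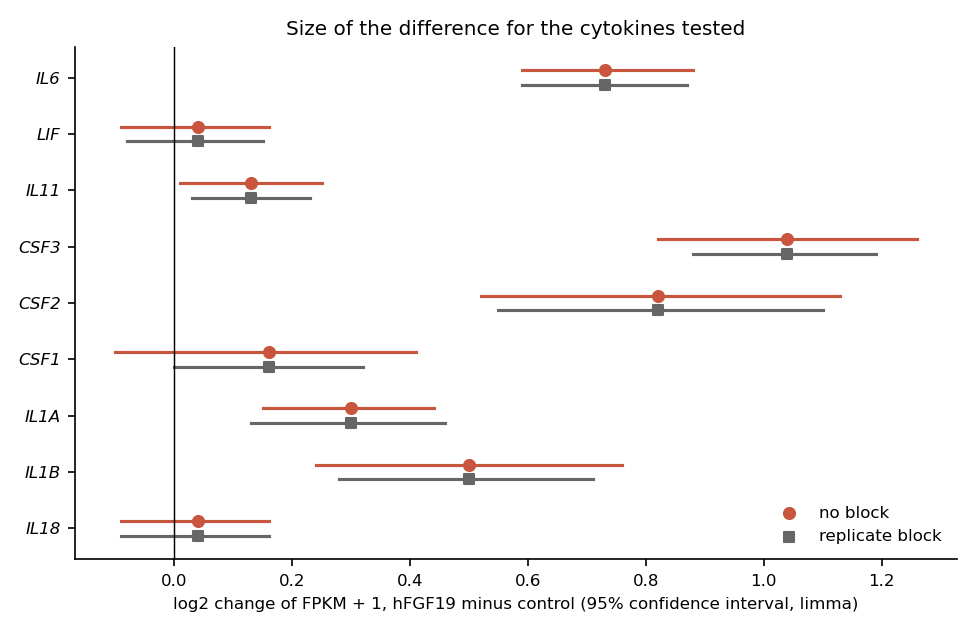
Log2 change of FPKM + 1 (hFGF19 minus control) of the 9 cytokines tested with 95% confidence intervals from limma, without (red) and with (grey) the replicate block. CSF3, CSF2 and IL6 lie at 0.73 or more, IL1B and IL1A at 0.50 and 0.30, and IL11, CSF1, LIF and IL18 at 0.16 or less.

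The receptor chains, which bear on whether the line could respond to its own cytokines, differed widely in level. The shared chain IL6ST averaged 759 ± 123 FPKM in the controls and 796 ± 107 FPKM in the hFGF19 samples, and the IL6-binding chain IL6R was at 19.2 ± 0.948 and 17.9 ± 1.27. LIFR was at 46.0 ± 8.27 and 44.7 ± 7.02 FPKM, and IL11RA at 1.94 ± 0.311 and 1.99 ± 0.209. For IL1A and IL1B, the signalling receptor IL1R1 was at 41.6 ± 1.76 and 42.4 ± 1.46 FPKM, its accessory chain IL1RAP at 10.6 ± 0.513 and 11.5 ± 1.78, and the decoy receptor IL1R2 at 5.32 ± 0.563 and 5.11 ± 1.48. TNFRSF1A, the main TNF receptor, was at 101 ± 8.28 and 100.2 ± 9.94 FPKM.

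For the colony-stimulating factors the receptors were low. CSF3R, the receptor of CSF3, had 5 reads over the 4 controls and 0 over the 4 hFGF19 samples, where a count of 0 has an upper 95% limit of 3.69 reads. CSF2RB, the signalling chain for CSF2, had 5 reads and 1 read, while the binding chain CSF2RA was at 2.43 ± 0.380 and 2.29 ± 0.296 FPKM. CSF1R was at 4.66 ± 0.306 and 4.14 ± 0.456 FPKM. Of the IL18 receptor, IL18R1 was at 3.18 ± 0.325 and 3.30 ± 0.116 FPKM and IL18RAP had 12 and 7 reads. TNFRSF1B, the other TNF receptor, had 6 and 10 reads. Of 15 receptor genes 11 were tested and 0 passed, as against 0.106% of all genes tested, with 5 log2 changes above 0.

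**Figure D4:**
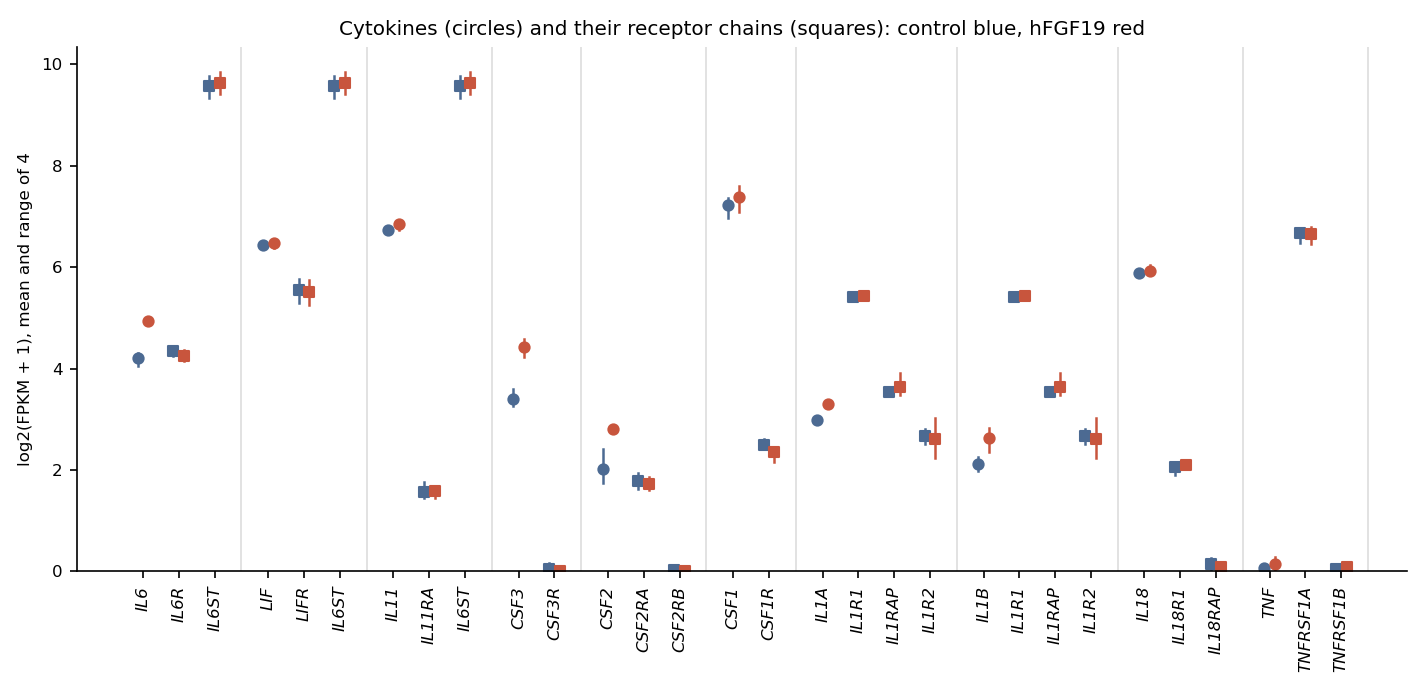
Level of each cytokine (circles) and its receptor chains (squares) as log2(FPKM + 1), with the mean and range of 4 controls (blue) and 4 hFGF19 samples (red). IL6ST stands above all the cytokines, and CSF3R, CSF2RB, IL18RAP and TNFRSF1B lie at or near 0 in both groups.

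Genes that restrain, process or resemble these cytokines were examined next. Of 6 antagonists and binding proteins 4 were tested and 0 passed. Among them, SIGIRR, an inhibitory receptor of the IL1 family, was at 18.2 ± 1.48 and 18 ± 2.15 FPKM. IL1RN, the receptor antagonist of IL1, was at 4.46 ± 0.0674 and 4.99 ± 0.480 FPKM. IL18BP, which neutralises IL18, was at 3.03 ± 0.667 and 3.03 ± 0.406 FPKM.

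Of 14 processing and inflammasome genes 9 were tested and 0 passed. The calpains CAPN2 and CAPN1, of the protease family that cleaves the IL1A precursor, were at 243 and 199 FPKM in the controls and at 239 and 194 FPKM with hFGF19. ADAM10, a membrane sheddase, was at 74.4 and 73.8 FPKM. CASP1, named after its values were seen, encodes the enzyme that matures IL1B and IL18 and was at 1.35 ± 0.346 and 1.35 ± 0.141 FPKM. The inflammasome sensor NLRP3, also named after its values were seen, had 18 and 23 reads over 4 samples each.

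Of 19 related ligands 6 were tested and 0 passed. The most abundant were the death ligand TNFSF10, at 23.4 ± 2.27 and 23.5 ± 1.15 FPKM, the KIT ligand KITLG, at 14 ± 0.793 and 12.5 ± 1.40, and the IL6-family cytokine CLCF1, at 10.4 ± 0.809 and 10.9 ± 0.339. Over the 4 lists together, 30 of 54 genes were tested. None was called by limma, with or without the block, or by voom on the recovered reads, and 0 had an unadjusted p below 0.05 by limma. Over all genes tested, limma called 0.106%, or 0.149% with the block, and voom called 0.0993%. An unadjusted p below 0.05 by limma was found in 4.23%. With shares this low a call was unlikely in any list of this size, so nothing is read from the 0 in these lists. The median log2 change was 0.00, against -0.01 over all genes.

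The AU-rich content of the transcripts, a feature that played no part in choosing the genes and was examined after the expression values were known, varied widely among the cytokines. In GENCODE 29 the pentamer ATTTA occurred 25.2 times per kb of 3′ untranslated region in CSF2, 14 in IL6, 11.3 in TNF, 9.84 in IL1B and 8.20 in CSF3. It occurred 5.56 times per kb in IL11, 4.34 in IL1A, 2.18 in LIF and 1.86 in CSF1, and not at all in the 345 bases of IL18. The median of 11602 tested genes with such a region was 1.56 per kb, and 0.0776%, 0.526% and 2.33% of them had a higher density than CSF2, IL6 and CSF3. The nonamer TTATTTATT, a stricter form that overlaps the pentamer, occurred in 5 of the 10 cytokines (CSF2, LIF, IL11, IL1B and TNF) and in 8.21% of those genes. The densest stretches of 25 bases are given for the 5 cytokines of highest density, 5′ to 3′ with the pentamers in capitals and T for U.
CSF2: aaatATTTATTTATTTATTTATTTA
IL6: attatttttaATTTAttaatATTTA
TNF: tATTTATTTAttATTTATTTATTTA
IL1B: aaccgcttccctATTTATTTATTTA
CSF3: tgtATTTAtctctATTTAatATTTA
CSF2 and TNF held 5 pentamers in these stretches, and IL6 held 2. Of the 4 cytokines with the largest log2 changes (CSF3, CSF2, IL6 and IL1B) all had at least 8.20 pentamers per kb, as against 0 to 5.56 per kb in the 4 with changes of 0.16 or less (CSF1, IL11, LIF and IL18) and 4.34 in IL1A, with its change of 0.30. The nonamer did not follow that order, with 0 in IL6 and in CSF3, 3 in CSF2 and 2 in IL1B, but 6 in IL11 and 2 in LIF. TNF, at 11.3 pentamers per kb, has no place in that order because its level was below the filter. The log2 changes were known when the genes were chosen. With 9 genes this order is a description, and a link between pentamers and changes was not tested.

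**Figure D5:**
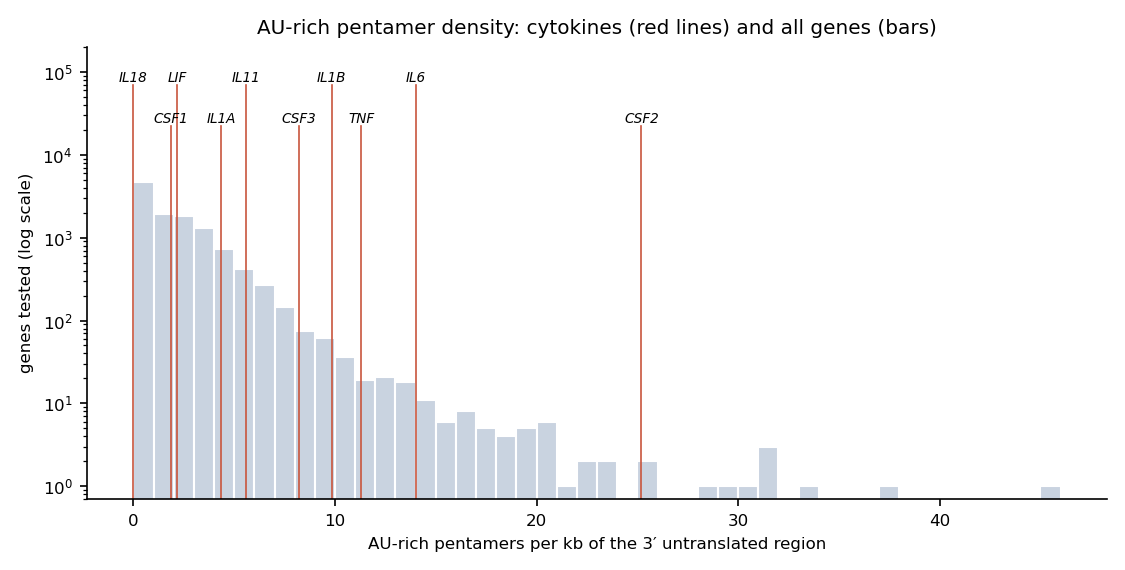
Number of tested genes (bars, log scale) by density of AU-rich pentamers per kb of 3′ untranslated region, with red lines for the 10 cytokines. CSF2 at 25.2, IL6 at 14 and TNF at 11.3 lie in the upper tail, and IL18, CSF1 and LIF lie in the bulk of the genes.

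The genes whose profiles over the 8 samples were nearest to IL6 were found from the root mean square difference of log2(FPKM + 1) after centring each gene. They were LCN2, an iron-siderophore binding protein (difference 0.0659), the chemokine CXCL3 (0.0926) and CPXM1, a carboxypeptidase-like protein (0.0938). LCN2 stood at 118, 137, 130.3 and 112 FPKM in the controls and 197, 204, 222 and 202 FPKM with hFGF19, with control 4 the lowest as for IL6. CPXM1 was low, at 0.793 ± 0.130 and 1.66 ± 0.0996 FPKM on 31 to 76 reads per library. Its log2 change was 0.57 with 1 FPKM added (adjusted p = 0.236, limma) but 1.06 on recovered reads (adjusted p = 0.0347, voom). For IL6 these changes were 0.73 and 0.77, so the nearness of CPXM1 depends on the added 1 FPKM. For CSF3 the nearest were the chemokines CXCL1 (0.122) and CXCL8 (0.189), and CSF2 (0.204). Centring over all 8 samples left the difference between the groups in each profile. IL6, CSF3 and CSF2 were chosen with that difference known, so other genes that rise with hFGF19 come out as near. Nearness here therefore restates that rise, and likeness of profiles within the groups was not tested.

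Genes that overlap the cytokines on the opposite strand could share reads with them, since the strand setting is not given in the sources used here. Over IL6 lie the antisense gene AC073072.1, with 4 and 2 reads, and STEAP1B, at 2.34 ± 0.789 and 1.99 ± 0.221 FPKM. Over LIF lie LIF-AS1, with 25 and 45 reads over the 4 samples of each group, and AC004264.1, at 4.68 ± 0.749 and 4.16 ± 0.259 FPKM. AP002884.3, over IL18, had 1 and 0 reads, where 1 is the smallest number that fits. None of these overlapping genes was as abundant as the cytokine it overlaps, and in GENCODE 29 no gene of the table was found over the other 7 cytokines.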

How the data were processed

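The authors deposited FPKM values, 1 per gene and sample, for 59641 genes in 8 samples. Per the submitters' processing notes, which assign no roles, the tools were HISAT2 2.0 and StringTie 1.3.0 and the build was hg19. How fragments were counted, with which annotation, strand setting or filter, is not given in the sources used here, and overlapping genes may therefore share reads. FPKM values stepped in whole reads, and 99.996% of those above 0 came out whole within 0.02 reads, with library totals between 17121190 and 20752753. For each gene the shortest length that gave whole reads in all samples was taken. Read numbers of genes with reads in few samples are therefore minimum values. For such genes coming out whole was fixed in advance and tests nothing. In these paired-end libraries such a read may stand for a read pair.

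The difference, hFGF19 minus control, came from limma 3.58.1 (R 4.3.3), using log2(FPKM + 1) values and a trend in the variance. Tests were two-sided, p-values were adjusted by Benjamini-Hochberg across 14100 genes averaging 1 FPKM or more, and a call needed an adjusted p below 0.05. The procedure was tested on simulated data. The 10 cytokines and all lists were chosen with earlier results of these data known. Their calls therefore describe the fit and are not independent evidence. Named genes were the cytokines, their receptor chains, called genes or else the 3 most abundant of each list, antisense genes, and the 3 genes with profiles nearest to IL6 and to CSF3. Other genes were named after their values were seen, as were the overlapping genes on the opposite strand. Deviations from the group means correlated at 0.11 to 0.30 in all 4 pairs of equal replicate number. Other pairs ran from -0.45 to 0.44, so the strongest correlation was between unlike numbers. A fit with the number as a block was run because all 4 equal-number correlations were above 0.1. That rule does not establish that samples of equal number were paired. Alternatives changed the pseudocount, filter, scaling, variance trend and block, left out each library, or used limma's voom on the recovered reads. The AU-rich content and the voom fit with the block were added after seeing the data. Promoter windows (RefSeq, GRCh38.p14) and 3′ untranslated regions (GENCODE 29, GRCh38, the transcript with the longest coding part) give sequence only, since the values are on hg19. Intervals on reads cover counting error only, and for genes with reads in few samples they rest on minimum read numbers.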

Additional observations from a re-analysis of the deposited data

How the results depend on the processing

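IL6 and CSF3 were called higher in each of 18 alternatives, with log2 changes of 0.68 to 0.77 and 0.98 to 1.11 and adjusted p of at most 0.0170 and 0.0183 (limma). CSF2 was called in 3 of 18, namely with the replicate block (3 cytokines and 21 genes called), with voom on recovered reads plus that block, and without control 4. Its log2 change ran from 0.74 to 1.01 and its adjusted p from 0.00487 to 0.387. The other 6 cytokines tested were called in none of the 18, and no log2 change reversed. The block changed no other call among the cytokines or in the 4 lists, where 0 genes were called under each alternative. The number of genes called overall was 15, lay between 10 and 21 in 9 other alternatives that kept all libraries, and was 41 with voom plus block, which was chosen after seeing the data. Leaving out 1 library gave 7 to 13 genes and 2 to 3 cytokines, fits that have fewer samples. Depth limits TNF, CSF3R and CSF2RB, each with at most 14 recovered reads per group, and to a lesser degree CSF2 and IL1B.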

Other observations

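Among the related ligands below the filter, IL36G and IL36B of the IL1 family and TNFSF15 had higher means with hFGF19. They were chosen after their values were seen. CTF1, IL33, IL5 and LTA also had higher means, whereas LTB, FLT3LG, IL34 and IL3 had lower means. LTB, for example, had 77 reads in the controls and 64 with hFGF19. IL27 and IL36A were at 0 reads in all 8 samples. IL36G, an epithelial cytokine, was at 0.333 ± 0.121 FPKM in controls and 0.601 ± 0.0966 FPKM with hFGF19 on 21 and 38 reads. Its groups were apart by 0.0531 FPKM, with 3 to 7 reads per control and 8 to 11 per hFGF19 sample. The share of genes below the filter with separate groups was not counted, so nothing is read from this gap. IL36B was at 0.636 ± 0.182 and 1.05 ± 0.410 FPKM on 53 and 87 reads, with overlapping groups. TNFSF15, an endothelial-active TNF-family ligand, was at 0.581 ± 0.112 and 0.816 ± 0.233 FPKM on 206 and 291 reads, again with overlapping groups. In the fit with no filter on low values, the log2 changes of IL36G, IL36B and TNFSF15 were 0.27, 0.31 and 0.19, and none passed (adjusted p = 0.922 for each, limma). IL36RN, the antagonist of the IL36 receptor, had 7 reads in the controls and 2 with hFGF19. HLA-DRA, an antigen-presenting molecule and 1 of the 16 immune markers, was at 4.19 ± 0.508 and 5.31 ± 0.562 FPKM (adjusted p = 0.9998, limma). All its hFGF19 samples lay above all controls, as in 1.48% of all genes tested. The part of HLA-DRA in the cytokine differences was not tested. Across the 20 sets of 4 libraries (10 cytokines in each group), Dixon's test at the 95% level found 0 with an isolated library, where chance would give about 1.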
